A study of Saccharomyces cerevisiae with 78 samples.

Results

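The strain described here, *rpl23a*Δi (rpl23aDi in the labels), lacks the intron of *RPL23A* (YBL087C) on its chromosome and keeps both exons. Its members are the arrays whose description begins with that strain name: 6 of the 78 arrays of the series, forming 3 replicates with the mutant in Cy3 on 1 array and in Cy5 on the other. The other 72 arrays belong to 16 strains, each lacking the intron of another ribosomal protein gene. Every array set mutant RNA against RNA of a wild-type *S. cerevisiae* strain that kept all its introns and came from the same diploid parent. The deletion was made in the diploid and the mutant recovered as a haploid by sporulation, while the ploidy of the wild type is not stated. Mutant and wild type were grown side by side in rich glucose medium at 30 °C. Whether the replicates were separate cultures or separate spores is not stated in what was read here, so p-values measure the spread between these samples only. Each value is the mutant signal divided by the wild-type signal on a log2 scale, and a positive value means more RNA in the mutant.

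*RPL23A* and its copy *RPL23B* (YER117W) encode the same protein, L23 of the large (60S) ribosomal subunit. L23 lies on the face of the 60S subunit that meets the small (40S) subunit, close to L3, L19 and L24, and the assembly factor Tif6 sits on it to keep immature 60S subunits from joining the 40S. Ribosomal protein genes make up a large part of yeast transcription, many of them have an intron and a second copy, and some, such as *RPL30* and *RPS14B*, are known to control their own splicing.

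The array is splicing-sensitive: an intron feature reads pre-mRNA, a junction feature reads spliced mRNA and an exon feature reads both. Exon features covered 941 genes and intron features 228. Each feature was printed as 6 spots, whose SD within an array of *rpl23a*Δi had a median of 0.17. Replicate 2 lost the most spots in processing by the authors: 37.1% with the mutant in Cy3 and 31.25% in Cy5, against 6.51% to 11.5% on the other 4 arrays. Going by how the array names begin, replicates 2 and 3 were on slides of one batch (C below) and replicate 1 on slides of another (A).

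The replicates of *rpl23a*Δi fell into 2 sets by mating-type genes, and this is given before the rest because it bears on every mean over the 3. *MFA2*, which encodes the pheromone a-factor made by **a** cells, was at -4.00 and -3.43 in replicates 2 and 3, and at 0.19 in replicate 1. *MFA1*, the second a-factor gene, was at -2.20 and -1.88 in replicates 2 and 3, and at -0.07 in replicate 1. The genes of α cells lay on the other side. *MF(ALPHA)1*, which encodes the α-factor pheromone, was at 5.48 and 4.81 in replicates 2 and 3, against -0.18 in replicate 1, and *MF(ALPHA)2* was at 2.81 and 2.98 against 0.01. *STE3*, the receptor for a-factor, was at 2.29 and 2.28 against 0.02. The 2 regulators encoded at the α mating-type locus followed, *MATALPHA2* at 2.07 and 1.22 against 0.17, and *MATALPHA1* at 4.25 and 2.94 against -0.97. On replicate 1 the *MATALPHA1* value came from a single spot in Cy3 and none in Cy5. All 7 measured cell-type markers thus separated the replicates with no overlap, while *STE2*, *STE6*, *BAR1*, *AGA2*, *ASG7* and *SAG1* were not analysed here. Of the 4 arrays of replicates 2 and 3, all gave the same sign for each of the 7 genes, so the split did not follow the dye. The labels give no mating type, and mating type, slide batch and culture cannot be told apart within this strain.

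**Figure D1:**
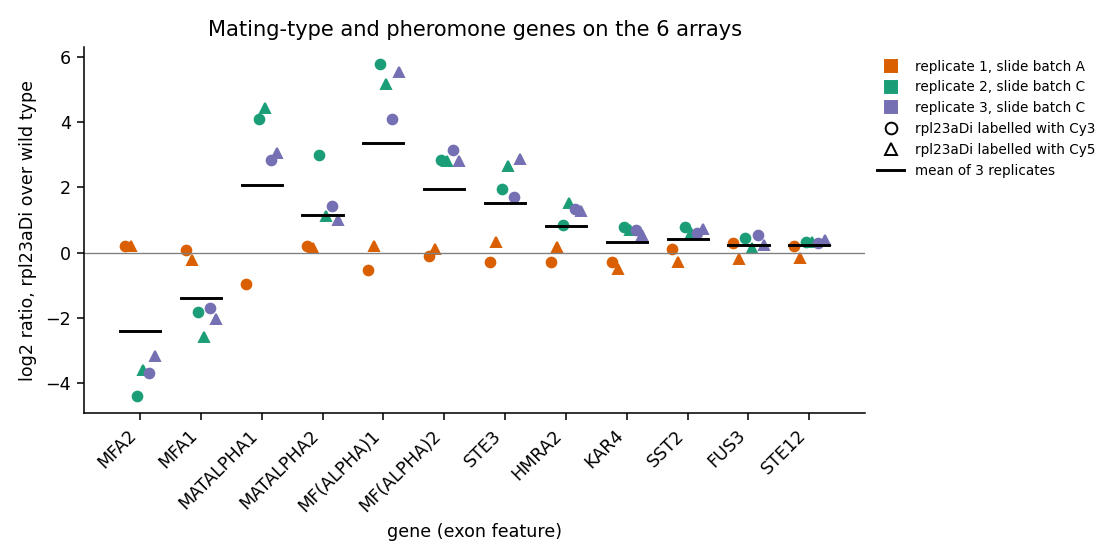
Log2 ratio of *rpl23a*Δi over wild type (y axis) for 12 mating-type and pheromone genes (x axis) on each of the 6 arrays, coloured by replicate, with circles for the mutant in Cy3 and triangles for the mutant in Cy5; the bar is the mean of the 3 replicates. *MFA2* sits at 0.19 in replicate 1 and at -4.00 and -3.43 in replicates 2 and 3, and *MF(ALPHA)1* at -0.18 in replicate 1 and at 5.48 and 4.81 in the other two.

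Batch C minus batch A was tested within the strain by a limma fit with 1 mean per strain and slide batch. In *rpl23a*Δi 12 genes were higher and 6 lower in batch C, which is 1.91% of the 941 tested. The largest differences were those of the mating-type genes, with *MF(ALPHA)1* higher by 5.32 (limma adjusted p = 0.013), *MATALPHA1* by 4.57 (adjusted p = 0.00088) and *MFA2* lower, with a difference of -3.91 (adjusted p = 2.3e-05). *MFA1*, at a difference of -1.97, missed the threshold (adjusted p = 0.065). Genes that respond to pheromone were among the rest: *KAR4*, a transcription factor for nuclear fusion, stood 1.07 higher in batch C and *SST2*, which damps pheromone signalling, 0.77 higher. The *KAR4* value of replicate 2 came from 2 spots in Cy3 and 3 in Cy5. *HMRA2*, at the silent mating-type locus *HMR* and sharing sequence with *MATALPHA2*, was 1.31 higher, so its value cannot be told apart from that of *MATALPHA2*.

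The other called genes were outside the mating and pheromone lists. *CUP1-2*, a metallothionein gene with an identical neighbouring copy, was at -0.54 and -0.75 in replicates 2 and 3 and at 0.69 in replicate 1. *GTS1* was at -0.29 and -0.47 against 1.38, and *RRT8* at -0.28 and -0.13 against 0.65. The *RRT8* value of replicate 1 came from Cy3 only and that of replicate 2 from 1 spot in Cy5. *HSC82*, which encodes the constitutive Hsp90 chaperone, was low in all 3 replicates but least so in batch C, at -0.10 and -0.19 against -0.80. The rest were *TYE7* and *RPL36B*, lower in batch C, and *PRP11*, *CPT1* and *POL1*, higher in it. Some of the widest differences that were not called also rested on few spots: *SPO1* and *IME4* had 1 spot on the Cy3 array of replicate 2, and *ARO80* had none there and 1 in Cy5. *RGS2* (-0.62), *COS8* (-0.77), *IAI11* (-0.62), *RPO26* and *TDH1* (0.80) were the remaining genes among the 10 widest either way, and none of these 5 was called.

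In 5 other strains replicate 1 was likewise on batch A and replicates 2 and 3 on batch C, and the same contrast gave 39, 124, 180, 139 and 130 called genes in *rpl2b*Δi, *rpl34a*Δi, *rpl35a*Δi, *rpl40b*Δi and *rps8a*Δi. The difference in *MFA2* was -3.91 in *rpl23a*Δi, -4.91 in *rpl34a*Δi and -4.16 in *rps8a*Δi, but -0.18 in *rpl2b*Δi, 0.22 in *rpl35a*Δi and -0.88 in *rpl40b*Δi. *MF(ALPHA)1* differed by 5.32 in *rpl23a*Δi and by between 0.27 and 6.40 in the other 5. Set against the mean of those 5 strains in 1 test, the batch difference of *rpl23a*Δi departed in 9 of 933 genes (0.965%), *MFA2* among them. With each array scaled to 1 spread the count was 0.

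The label of the strain was borne out by the deleted intron. On arrays with the mutant in Cy3 the intron feature of *RPL23A* was at -1.51, -2.65 and -2.93 in replicates 1, 2 and 3, and with the mutant in Cy5 at -1.46, -2.05 and -1.98. All 6 arrays were far below 0, and the mean was -2.10 ± 0.53 (SD, n = 3), or 0.234 of the wild-type signal (limma adjusted p = 1.1e-12). It was the lowest of 228 intron values in the strain. In the other 16 strains, which keep this intron, the same feature lay between -0.30 and 0.47. The mutant holds none of this sequence, so the value is what the feature reads with no target on the mutant side. It differed by batch, at -2.35 and -2.45 in replicates 2 and 3 and -1.49 in replicate 1. In each of the 5 other strains with this layout the deleted intron also had a lower mean in batch C than in batch A, by differences of -0.05 to -1.44. The replicates did not always separate. In *rpl2b*Δi replicate 3 (-2.59) lay above replicate 1 (-3.15), and in *rps8a*Δi replicate 2 (-1.330) lay just above replicate 1 (-1.334).

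Without its intron, *RPL23A* was at 0.05, 0.08 and 0.06 in replicates 1, 2 and 3 by exon feature, a mean of 0.06 ± 0.01 (SD, n = 3), 1.04 times wild type. These 3 values lay close together, but the 6 arrays under them ran from -0.07 to 0.22, and limma's standard error, which borrows the spread of all strains, was 0.10 (adjusted p = 0.99). The junction feature, which reads the joined exons that an intronless gene also makes, gave 0.03, 0.19 and 0.14, a mean of 0.12 ± 0.09 (adjusted p = 0.99). Of the 941 genes, 226 had a higher mean exon value in the strain than *RPL23A*. In the 16 other strains the mean exon value of *RPL23A* was between -0.28 and 0.14, and 4 of them were higher than *rpl23a*Δi.

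The intact copy, *RPL23B*, was at 0.07, -0.06 and 0.07 by exon feature, a mean of 0.03 ± 0.08 (SD, n = 3; limma adjusted p = 0.99), with replicates on both sides of 0. The copies encode identical protein and the probe sequences are not in the sources used here, so the exon features of *RPL23A* and *RPL23B* may read both mRNAs. The intron feature of *RPL23B*, which reads its pre-mRNA, gave 0.59, -0.28 and 0.22, with an SD of 0.44 around a mean of 0.18 (adjusted p = 0.98). Only 1 to 5 of its 6 spots had a value on any array. The Intron Accumulation Index, the intron value minus the exon value of the same gene and a measure of unspliced RNA, was 0.52, -0.22 and 0.15 for *RPL23B*, a mean of 0.15 ± 0.37 (adjusted p = 0.96). Its sign followed replicate 1: without that replicate it was -0.03.

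**Figure D2:**
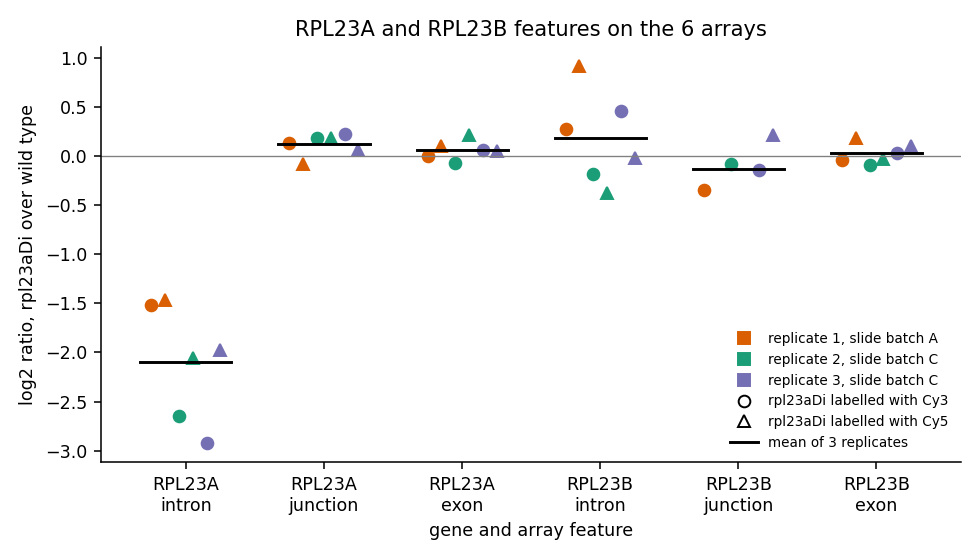
Log2 ratio of *rpl23a*Δi over wild type (y axis) for the intron, junction and exon features of *RPL23A* and *RPL23B* (x axis) on each array, coloured by replicate, with circles for the mutant in Cy3 and triangles for the mutant in Cy5; the bar is the mean of the 3 replicates. The *RPL23A* intron lies between -2.93 and -1.46 on the 6 arrays, while both exon features stay between -0.09 and 0.22.

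The genes for proteins near L23 in the ribosome were next. Of *RPL3*, *RPL19A*, *RPL19B*, *RPL24A*, *RPL24B* and *TIF6*, the first 5 were measured here, and 0 of 5 passed the test. Their means ran between 0.01 (*RPL19B*) and 0.14 (*RPL19A*), with a median of 0.04, and no member was above 0 or below 0 in all 3 replicates. *RPL19A* had its largest value, 0.46, in replicate 1 and was at 0.01 and -0.04 in replicates 2 and 3. *RPL3*, which has no second copy, was negative on the 3 arrays with the mutant in Cy3 (-0.15 to -0.30) and positive on the 3 in Cy5 (0.04 to 0.71), with a mean of 0.07.

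Ribosomal protein genes as a group stayed near 0. Of 71 measured RPL and RPP genes, which encode proteins of the large subunit, 16 were above 0 and 11 below 0 in all 3 replicates, with a median of 0.02. Over all 941 genes, 16.9% were above and 18.3% below in all 3, with a median of 0.00. The RPL means ran between -0.14 (*RPL41A*) and 0.14 (*RPL19A*). Of 52 RPS genes, which encode small-subunit proteins, 9 were above and 11 below in all 3 replicates, with a median of 0.00 and means between -0.15 (*RPS16B*) and 0.15 (*RPS10B*). None of these genes was called by the mean over the 3 replicates. The genes for the regulators of ribosomal protein transcription ran between -0.20 (*ABF1*) and 0.10 (*RAP1*), with 0 of 8 called in the same test. Of the genes within 10 places of *RPL23A* on its chromosome, 5 are on the array, and their means ran between -0.10 and 0.01.

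Each gene's mean over the 3 replicates was then tested against 0 to ask what else the deletion changed. In limma, 0 of 941 genes passed an adjusted p of 0.05 (0%), and 48 had an unadjusted p under 0.05. The count depended on the dye: with the mutant in Cy3 only 79 genes were called, and in Cy5 only 5. A total of 681 genes (72.4%) had a mean within 0.1 of 0, and only 12 lay beyond 0.5 in either direction. The smallest adjusted p was that of *ENA1*, the sodium pump induced by salt, which was at -0.48, -0.39 and -0.35 in replicates 1, 2 and 3 (mean -0.40 ± 0.07, n = 3; adjusted p = 0.12). *ENA1* was below 0 on all 6 arrays. Of the 941 genes, 11 were above 0 and 23 below 0 on all 6 arrays. The sign often differed between the dyes: 133 genes (14.1%) were above 0 and 136 (14.5%) below 0 in both dye orientations, each averaged over replicates.

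Apart from the mating-type genes, genes of the stress response were the list with the median furthest from 0. Of 11 measured members of the list, 9 were below 0 and 0 above 0 in all 3 replicates, against 18.3% below over all genes, and the median was -0.31. None passed the test. The median was -0.49 in replicate 1 and -0.21 over replicates 2 and 3. The same 9 of the 11 were those below 0 in both batch C replicates, against 33.6% of all genes, so this is not a separate reading. By dye the median was -0.09 with the mutant in Cy3 and -0.45 in Cy5, and 8 of 11 were below 0 in both. *HSP104*, the chaperone that dissolves protein aggregates, had the lowest mean, at -0.75, -0.59 and -0.71 in replicates 1, 2 and 3 (mean -0.68 ± 0.08, n = 3; limma adjusted p = 0.99). It lay between -0.47 and -1.02 on the 6 arrays, none of which reached 0.

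The cytosolic Hsp70 genes *SSA1* and *SSA2* were at -0.65, -0.22 and -0.34 and at -0.64, -0.22 and -0.34. These copies are so alike that their probes cannot be taken as separate readings. *SIS1*, an Hsp40 partner of Hsp70, was at -0.49, -0.35 and -0.33, below 0 on all 6 arrays. *HSC82* was at -0.80, -0.10 and -0.19, but with the mutant in Cy3 its mean was 0.10, so its direction depended on the dye. *GPD1*, which makes glycerol in osmotic stress, was at -0.46, -0.23 and -0.25 (mean -0.31 ± 0.12). *SSA4*, the Hsp70 induced by heat, averaged -0.28, and *KAR2*, the Hsp70 of the endoplasmic reticulum, averaged -0.27, while *SSA3* had the value closest to 0, at -0.10. With each gene averaged over the 16 other strains, the median of this list was 0.02, but strains of opposite sign cancel in such a mean. On batch C slides *HSP104* was below 0 in *rpl2b*Δi (-0.61), *rpl34a*Δi (-0.68), *rpl35a*Δi (-0.88) and *rps14b*Δi (-0.50). *HSP104* was above 0 in the other strains on these slides, between 0.09 and 0.80.

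Ribosome assembly genes leaned the other way. Of 19 measured genes for 40S assembly and small nucleolar proteins, 13 were above 0 and 0 below 0 in all 3 replicates, against 16.9% above over all genes, with a median of 0.14. Of 14 genes for 60S assembly and export, 7 were above 0 and 0 below 0 in all 3, with a median of 0.07. In batch C alone, 14 of 19 and 7 of 14 were above 0 in both replicates, against 35.4% of all genes. These counts contain the 13 and 7 above, so they are not a separate reading. The lean was smaller in 1 dye: the 40S median was 0.23 with the mutant in Cy3 and 0.03 in Cy5, and the 60S median was 0.10 in Cy3 and 0.00 in Cy5. No member of either list passed the test. Averaged over the other strains, the medians were 0.02 (40S) and -0.02 (60S), but strains of opposite sign cancel here too. On batch C slides *ECM16* and *NHP2* were also above 0 in *rpl2b*Δi (0.30 and 0.31), *rpl34a*Δi (0.20 and 0.18), *rpl35a*Δi (0.41 and 0.26) and *rps14b*Δi (0.36 and 0.17). In the remaining strains there *ECM16* lay between -0.25 and 0.02 and *NHP2* between -0.20 and -0.01.

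*ECM16*, a helicase of 40S assembly, was highest of the first list at 0.14, 0.51 and 0.29 (mean 0.32 ± 0.19, n = 3). With the mutant in Cy5 its mean was -0.05. *NOP10*, a core protein of the small nucleolar RNPs that guide pseudouridylation, was at 0.42, 0.14 and 0.14. *RCL1* was lowest, at -0.05. *RRS1*, needed for 60S assembly, was at 0.36, 0.23 and 0.23 (mean 0.27 ± 0.07), with 0.65 in Cy3 and -0.11 in Cy5, and *NIP7*, another 60S factor, at 0.24, 0.17 and 0.29, with 0.51 in Cy3 and -0.04 in Cy5. *DBP3*, a 60S helicase outside the lists, was at 0.22, 0.31 and 0.26, and its mean was above 0 in both dyes. *PUS7*, a pseudouridine synthase, was at 0.32, 0.15 and 0.32, and *LHP1*, the yeast La protein that binds new RNA polymerase III transcripts, at 0.28, 0.13 and 0.33. *PUS7* and *LHP1* were above 0 on all 6 arrays, *RRS1* and *NIP7* on 3 and 5.

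**Figure D3:**
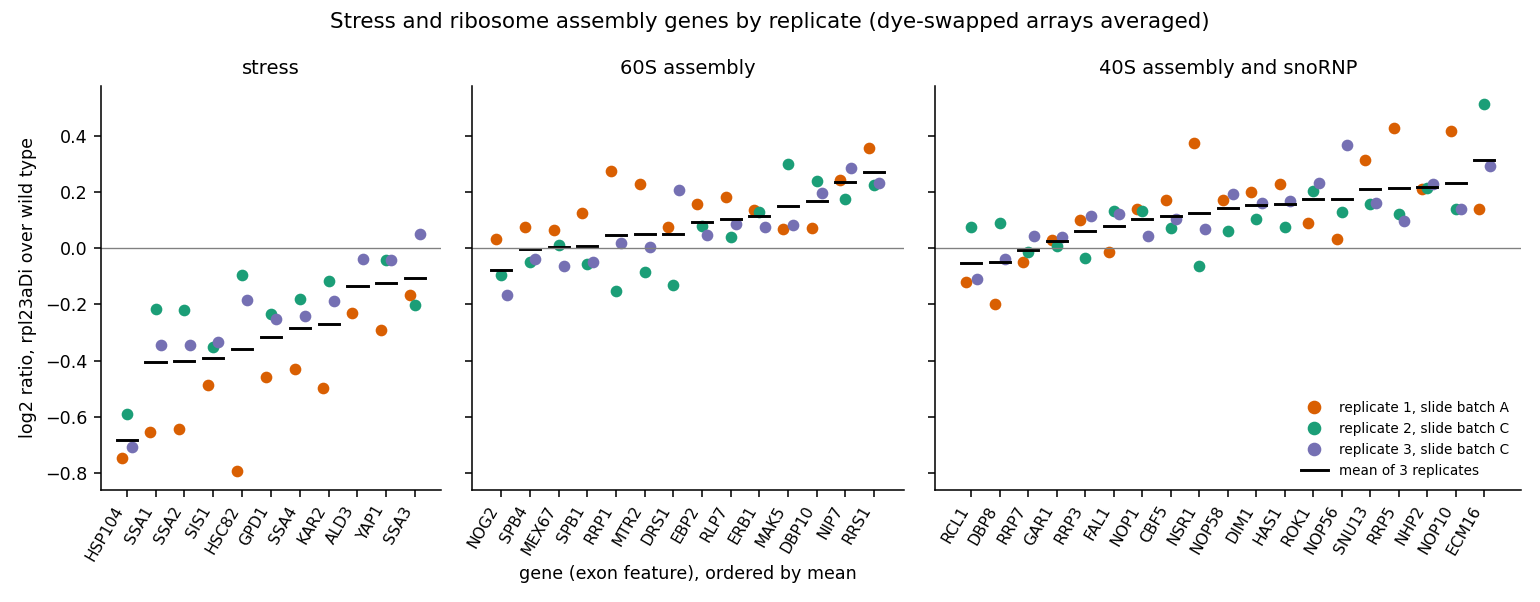
Log2 ratio of *rpl23a*Δi over wild type (y axis) by replicate, dye-swapped arrays averaged, for every measured member of the stress list, the 60S assembly list and the 40S assembly and small nucleolar protein list (x axis, ordered by mean); the bar is the mean of the replicates. The 11 stress genes average between -0.68 and -0.10, while the assembly genes average between -0.08 and 0.32.

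The remaining genes with the same sign in all 3 replicates and the widest means belonged to several functions. Among the lower ones, *AFT1*, the iron-responsive transcription factor, averaged -0.33 ± 0.09, *ADR1*, an activator of glucose-repressed genes, -0.33 ± 0.12, *MET28*, a regulator of sulfur metabolism, -0.31 ± 0.16 and *PRP18*, a factor for the second step of splicing, -0.31 ± 0.11. *AFT1*, *ADR1* and *MET28* were below 0 on all 6 arrays. As the mean of the other strains, *AFT1* was at -0.11, *ADR1* at -0.31 and *MET28* at 0.01. *EST2*, the catalytic subunit of telomerase, averaged -0.48 ± 0.37, with no spot on 2 of the 6 arrays, and 2 tRNA genes, *YNCD0013C* and *SUP16*, averaged -0.62 ± 0.14 and -0.37 ± 0.39. Among the higher ones, *PRP39*, a protein of the U1 snRNP, averaged 0.26 ± 0.10 but was at -0.19 with the mutant in Cy5. *FUS3*, the kinase of the pheromone pathway, averaged 0.25 ± 0.17, the helicase gene *DBP2* 0.24 ± 0.27 and *IAI11* 0.27 ± 0.36, each of the last 2 set mainly by replicate 1 (0.55 and 0.68). The mitochondrial tRNA gene *tQ(UUG)Q* averaged 0.24 ± 0.09.

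Spliceosome genes, the group that acts on introns, showed no lean. Of 87 measured, 15 were above 0 and 11 below 0 in all 3 replicates, with a median of 0.02 and a range of -0.31 (*PRP18*) to 0.29 (*LSM8*). The list of genes for nonsense-mediated and other RNA decay ran between -0.12 (*DCP1*) and 0.20 (*RRP6*), and the translation factors between -0.22 (*GCN4*) and 0.17 (*EFB1*). In the list of splicing-regulated genes *RPS9A* was lowest (-0.14), among glycolytic genes *PGK1* was lowest (-0.10), and *SNM1* was lowest (-0.08) of the genes of tRNA and RNase P processing. Of 12 measured genes in a list of intron-containing genes, mostly for ubiquitin, SUMO and the proteasome, 5 were below 0 in all 3 replicates. *MMS2* and *RAD14*, a DNA repair gene, were at the ends of the range (-0.15 and 0.16). Intron-containing genes for the cytoskeleton and transport ran between -0.15 (*COF1*) and 0.14 (*YIP3*), and genes used in building the strains between -0.15 (*GAL10*) and 0.11 (*GAL4*). Meiotic genes, not all of them with an intron feature, ran between -0.51 (*IME4*) and 0.37 (*SPO1*), both set by replicate 2. Pheromone response genes ran between -0.07 (*STE11*) and 0.42 (*SST2*). None of these genes was called by the mean over the 3 replicates. Some were called in the fit of batch C alone given below, among them *SST2*, *MMS2* (-0.19), *GCN4* (-0.24), *GAL10* (-0.18) and *RRP6* (0.27).

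**Figure D4:**
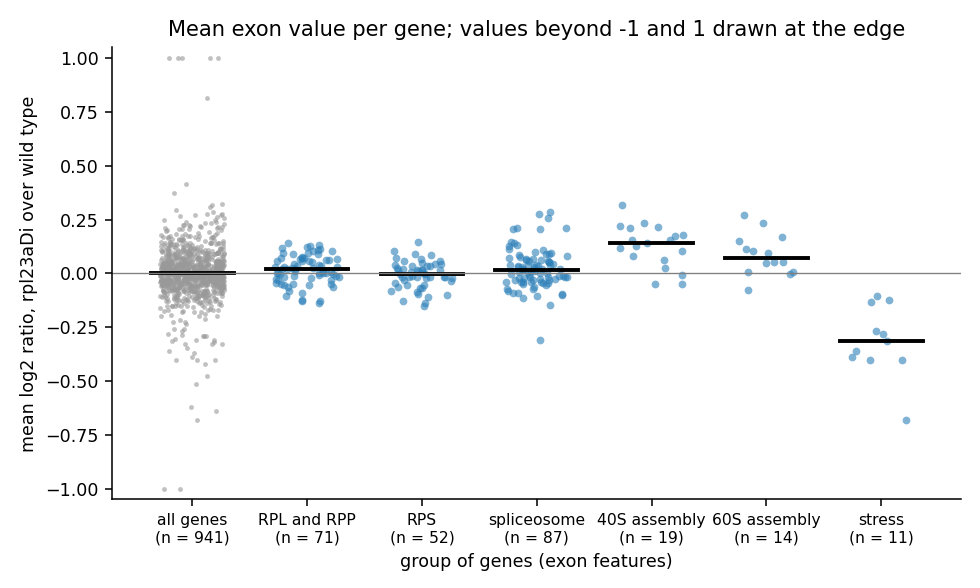
Mean log2 ratio of *rpl23a*Δi over wild type over the replicates (y axis), 1 point per gene, for all 941 genes and for 6 groups (x axis); the bar is the median of the group, and genes beyond -1 or 1, the mating-type genes, are drawn at the edge. The median is 0.02 for RPL and RPP genes, 0.14 for 40S assembly genes and -0.31 for stress genes.

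Since replicates 2 and 3 were on 1 slide batch, their mean was also tested with the batch C arrays of all 10 strains that have any. This fit called 73 of 941 genes (7.76%), 40 higher and 33 lower than wild type. Of these, 44 had the same sign in replicate 1: 22 of the 40 higher and 22 of the 33 lower. Over all genes, 333 were above 0 in both batch C replicates, and 159 of these were also above 0 in replicate 1. Below 0 the counts were 316 and 172. The 7 mating-type markers led, from -3.72 for *MFA2* to 5.14 for *MF(ALPHA)1*, and 5 of 9 measured genes of the pheromone response were higher: *KAR4* (0.68), *SST2* (0.67), *TEC1* (0.42), *FUS3* (0.34) and *STE12* (0.33). In replicate 1 these 5 lay between -0.39 and 0.06. In the 9 other strains on batch C, *KAR4*, *SST2* and *STE12* were above 0 in every strain, with medians of 0.64, 0.58 and 0.32. The medians of *TEC1* and *FUS3* there were 0.25 and 0.38. Against the mean of those strains none of the 5 passed (limma adjusted p between 0.25 and 0.96). *KAR4* and *SST2* did not follow the markers in every strain. They were at 0.76 and 0.72 in *rpl35a*Δi, where *STE3* was at -0.09, and at 0.20 and 0.16 in *rpl40b*Δi, where *STE3* was at 2.41. In *rpl2a*Δi they were at 0.19 and 0.22 with *STE3* near 0. In the remaining strains *STE3* was at 2.38 or more, *KAR4* at 0.58 or more and *SST2* at 0.46 or more.

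Among stress genes 4 of 11 were called lower in batch C: *HSP104* at -0.65 ± 0.04 (SE; limma adjusted p = 5.3e-07), *SIS1* at -0.34 ± 0.04 (adjusted p = 0.00034), and *SSA1* and *SSA2* at -0.28 ± 0.07 and -0.28 ± 0.06. All 4 were also below 0 in replicate 1, as were all 11 genes of the list. Among assembly genes 4 of 14 of the 60S list (*RRS1*, *NIP7*, *DBP10*, *MAK5*) and 3 of 19 of the 40S list (*ECM16*, *NHP2*, *ROK1*) were called higher, between 0.19 (*MAK5*) and 0.40 (*ECM16*), and 0 lower. All 7 were above 0 in replicate 1 too, as were 14 of 14 of the 60S list and 15 of 19 of the 40S list. For comparison, 40 of all 941 genes were called higher and 33 lower, and the median over all genes in replicate 1 was -0.0065. *ENA1* was lower at -0.37 and *ADR1* (-0.39), *AFT1* (-0.37), *YNCD0013C* (-0.54) and *SUP16* (-0.56) were lower too. *ADR1* was also below 0 in each of the 9 other strains on batch C, with a median of -0.55. The medians there were -0.33 for *AFT1*, -0.36 for *SUP16*, -0.29 for *YNCD0013C* and -0.14 for *ENA1*. Against the mean of those strains none of these genes passed (limma adjusted p between 0.0503 for *ENA1* and 0.68 for *AFT1*). *PUS7* (0.24), *LHP1* (0.23) and *DBP3* (0.28) were higher. In the other strains *PUS7* lay between -0.19 and 0.49, *LHP1* between -0.11 and 0.31 and *DBP3* between -0.37 and 0.37. None of these passed against the mean of those strains (limma adjusted p = 0.22, 0.24 and 0.089). Of the assembly genes, *RRS1*, *NIP7*, *DBP10*, *ROK1* and *MAK5* did not pass either (adjusted p = 0.0503, 0.060, 0.078, 0.11 and 0.24). *ECM16* and *NHP2* did (0.043 and 0.047). Of the ribosomal protein genes 1 was higher (*RPL17A*, 0.20) and 1 lower (*RPL10*, -0.14), and *RPL23A* and *RPL23B* were not called. This fit leaves out the batch A replicates of every strain, and its error is the spread between replicates within batch C.

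To ask whether a change was particular to *rpl23a*Δi, its mean was set against the mean of the other 16 strains. By exon value 0 of 923 genes passed (0%), with 27 at an unadjusted p under 0.05 in limma. *RPC82*, a subunit of RNA polymerase III, had the smallest p, at 0.20 ± 0.18 (SD, n = 3) in *rpl23a*Δi and -0.06 as the mean of the others, with a limma adjusted p of 0.999. The next were *ARO80*, *HSC82*, *NMD4*, *RAT1*, *tV(UAC)Q*, *DCN1*, *MRK1*, *RAD14* and *ENA1*. *HSC82* was at -0.36 in *rpl23a*Δi against 0.12, *ENA1* at -0.40 against -0.16, and *RAT1*, the nuclear exonuclease that ends transcription, at 0.16 against -0.06. The *ARO80* mean (-0.64) was set by the single spot of replicate 2 (-1.69).

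In batch C alone the same contrast, against 9 other strains, called 16 of 940 genes (1.7%), 7 higher and 9 lower. *HSP104* (difference -0.56 ± 0.05, SE), *SSA1* (-0.35), *SSA2* (-0.33), *SIS1* (-0.27) and *SSE2* (-0.25), which encodes an Hsp110 chaperone, were lower than the mean of the others. *ECM16* (0.31 ± 0.07), *NHP2* (0.19) and *IMD4* (0.24), an enzyme of guanine nucleotide synthesis, were higher, and so was *GCN3* (0.40), a subunit of the factor eIF2B, although *GCN3* was at -0.34 in replicate 1. *PRB1* (-0.30) and *GTS1* (-0.45) were lower than the mean of the others, and *YNCD0022C* and *NOP6* were called against the others but not against 0. The other strains differed widely among themselves: *HSP104* lay between -0.88 and 0.80 in the 9, and 2 of them were lower than *rpl23a*Δi. *SSA1* lay between -0.33 and 0.48, *SSA2* between -0.35 and 0.49 and *SIS1* between -0.57 and 0.82, with 1, 2 and 3 strains lower than *rpl23a*Δi. *ECM16* lay between -0.25 and 0.41, *NHP2* between -0.20 and 0.31 and *IMD4* between -0.36 and 0.31, with 1, 2 and 2 strains higher than *rpl23a*Δi. For *MIG3* all 9 others were higher, and for *GCN3* and *MATALPHA2* all 9 were lower. For *MATALPHA2* this rested on replicate 2 (2.07), since replicate 3 (1.22) lay below several of the other strains. *STE3* was above the mean of the others by 0.34, yet its value of 2.29 was below their median of 2.43, as *rpl2a*Δi and *rpl35a*Δi were near 0.

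**Figure D5:**
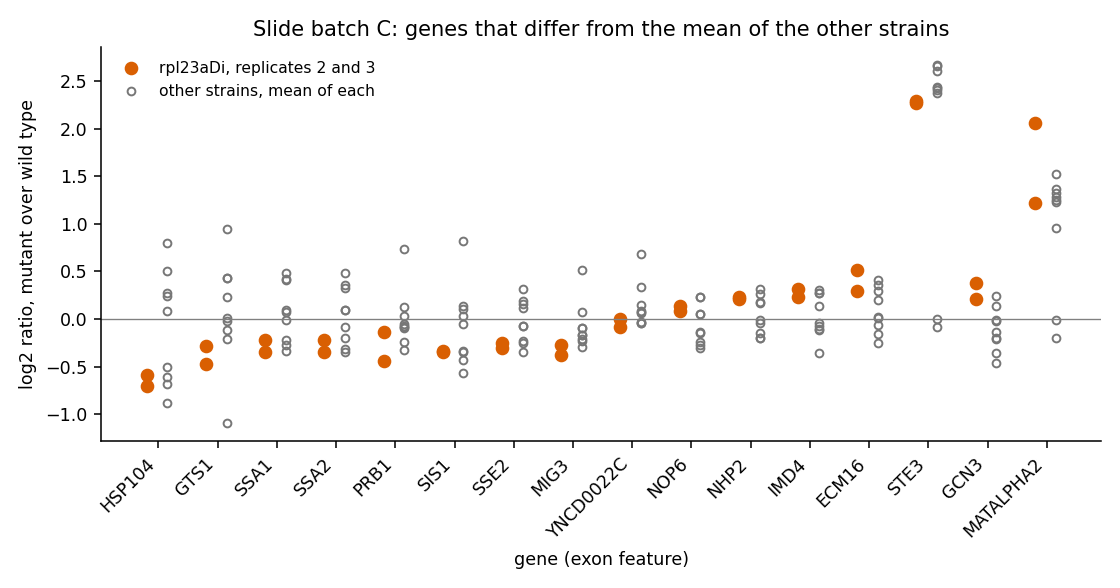
Log2 ratio of mutant over wild type (y axis) on slides of batch C for the 16 genes (x axis) whose *rpl23a*Δi mean differed from the mean of the other strains there; filled points are replicates 2 and 3 of *rpl23a*Δi and open points the mean of each of the 9 other strains. *HSP104* is at -0.59 and -0.71 in *rpl23a*Δi and between -0.88 and 0.80 in the others.

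Splicing of other transcripts was compared through the index. Apart from *RPL23A* itself, whose index of -2.16 ± 0.54 (SD, n = 3) reflects the deleted sequence, 0 of 227 genes passed (0%), and 12 had an unadjusted p under 0.05 in limma. The median index was 0.00, with 29 genes (12.8%) above 0 and 32 (14.1%) below 0 in all 3 replicates. Among 53 RPL and RPP genes, 10 were above and 8 below, *RPL23A* included. Among 43 RPS genes 5 were above and 5 below. Index values for L23 neighbours were -0.24 for *RPL19A*, 0.00 for *RPL19B*, 0.11 for *RPL24A* and -0.09 for *RPL24B*.

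The highest indices with the same sign in all 3 replicates were those of *OM14* (0.71), which encodes a protein of the mitochondrial outer membrane, and *SNC1* (0.40), a v-SNARE. *OM14* was at 1.74 in replicate 1, from 1 intron spot on each array, and at 0.28 and 0.12 in replicates 2 and 3. *SNC1* was at 0.96 in replicate 2 and at 0.11 and 0.13 in the others. *RPL7A* (0.31), *COF1* (0.23), the ubiquitin-conjugating enzyme gene *UBC4* (0.21), *RPS0A* (0.20), *RPS23A* (0.20) and *NHP6B* (0.19) followed. Of these 8, *RPS0A* had the tightest replicates, at 0.22, 0.25 and 0.14.

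Among the lowest by the same rule, *DBP2* was at -0.72, -0.54 and -0.44, from an intron value of -0.33 and an exon value of 0.24, and the mean of the other strains for its index was -0.07. *RPS24B* was at -0.24, -0.22 and -0.20 (mean -0.22 ± 0.02; limma adjusted p = 0.79), the tightest of this set. *RFA2* (-0.48) was set by replicate 2 (-1.31) and *RPL19A* (-0.24) by replicate 1 (-0.68). *KEI1* (-0.34), *RPL43A* (-0.25), *YNL050C* (-0.19) and *ARP9* (-0.18) were the rest. Against the mean of the other strains 0 of 202 indices passed (0%), *RPL23A* left out. Between slide batches 12 of 228 indices (5.26%) differed, 8 higher and 4 lower in batch C, among them *DMC1* (0.84 and 0.37 in replicates 2 and 3 against -1.38 in replicate 1), *RPL36B* (0.22 and 0.22 against -0.51) and *RPL23A*. The batch difference departed from the mean of the 5 other strains in 3 of 218 indices (1.38%), those of *OM14*, *DMC1* and *RPL23A*, and in 0 of 126 when at least 5 of 6 spots were required. By junction feature 1 of 228 genes (0.439%), *COX4*, passed against 0, at -1.21 from a single array (limma adjusted p = 0.049). It was no longer called with arrays centred, with robust eBayes, with the replicate block or from the strain's own replicates, where the smallest adjusted p over junctions was 0.052, 0.051, 0.11 and 0.64.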

How the data were processed

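Per the labels and the study's methods, RNA of mutant and wild type was labelled through aminoallyl-dUTP cDNA and hybridized to 2-colour arrays. The deposited values are log2 ratios. The authors normalized them in R (marray, limma) with their own scripts built on Goulphar. How background was corrected and spots were filtered, and in which versions, was something not given in the sources used here. Thus the effect of dim spots and of compression of large ratios could not be tested, and arrays have no counting depth: the number of spots and arrays limits precision. The direction had been turned already, as the deleted intron is below 0 in both dyes.

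Spots were named by the array annotation (8742 with 1 symbol, 474 with none, none with several, and all 982 symbols matched by locus tag). Intron, exon and junction features were told apart by the printing layout, a rule that gave the deleted intron as the lowest feature in 17 of 17 strains; 24 genes were placed by parts of it that no deleted intron tests, and 79 features without symbol and 50 without kind were left out. Spots (6 per feature) were averaged, then both dye orientations of each replicate. All 17 strains (39 replicates) entered 1 linear model, lmFit and eBayes of limma 3.58.1 (R 4.3.3), and each strain mean was tested against 0, with Benjamini-Hochberg adjustment over the genes tested and a threshold of 0.05. The fit was tested on simulated data. Named genes are *RPL23A*, *RPL23B*, L23 neighbours, the 15 highest and 15 lowest exon means and 8 highest and 8 lowest indices of 1 sign in all 3 replicates, the 10 widest batch differences each way, the 10 smallest p against the other strains, called genes, and the ends of each list; *DBP10*, *MAK5*, *NHP2*, *ROK1*, *TEC1*, *STE12*, *RPL17A*, *RPL10*, *SSE2*, *IMD4*, *GCN3*, *MIG3*, *COX4*, *SSA4*, *KAR2*, *PRB1*, *NOP6* and the genes called only by single alternatives were named after their values were seen. The members and lists were chosen with earlier results of these data known. Alternatives were centring, scaling, spot medians, single dyes, slide batch, replicate block, own replicates, robust eBayes, single arrays, complete features, leaving out replicates and, chosen after seeing the data, requiring both dyes. Python 3.11.15, pandas 2.3.3, NumPy 2.4.6 and matplotlib 3.10.9 did the rest.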

Additional observations from a re-analysis of the deposited data

Results flagged for a closer look

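The change in slide batch, C minus A, was compared in 1 limma test with the mean of the same difference in *rpl2b*Δi, *rpl34a*Δi, *rpl35a*Δi, *rpl40b*Δi and *rps8a*Δi, and 9 exon values and 3 indices stood out. None of the 933 exon values did with each array scaled to 1 spread (smallest adjusted p = 0.46, with 44 at an unadjusted p under 0.05), and 0 of 126 indices did with at least 5 of 6 spots (smallest adjusted p = 0.097, with 14 at an unadjusted p under 0.05). Among chaperone and stress genes, *SIS1* differed by 0.65 (batch C minus A of 0.14 in *rpl23a*Δi and -0.51 as the mean of the others), *HSC82* by 0.89 (0.65 and -0.23) and *GPD1* by 0.79 (0.21 and -0.57). *HSC82* ran between -0.74 and 0.42 in the other 5 strains. *MFA2* differed by -1.92 and *CUP1-2* by -0.83 (-1.33 and -0.50). *POL1*, which encodes the catalytic subunit of DNA polymerase α, differed by 0.60 and the kinase gene *PTK2* by 0.51. *RRP1*, a 60S assembly gene, differed by -0.59 and *RPC34*, a subunit of RNA polymerase III, by -0.42. The *OM14* index differed by -1.78, from 1 intron spot on each array of replicate 1, the *DMC1* index by 1.83 and the *RPL23A* index by -0.78. The *RPL23A* index was also set apart from the mean of the other strains, by -2.21, which follows from the deletion. Slide batch, culture and mating type cannot be told apart within the strain.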

How the results depend on the processing

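The deleted intron of *RPL23A* was below 0 under every alternative, at -1.49 in batch A only, which has no residual degrees of freedom and so no test, and at -2.10 with the strain's own replicates only, where it missed the threshold (limma adjusted p = 0.12). The exon value of *RPL23A* was -0.0029 and that of *RPL23B* -0.034 with the mutant in Cy3 only. The *RPL23B* index was 0.52 in batch A only, -0.032 in batch C only, -0.090 with at least 5 of 6 spots, and -0.032 to 0.34 when a replicate was left out.

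The count of 0 genes called by exon value became 79 in Cy3 only, 5 in Cy5 only, 73 in batch C only, 7 with each array as a replicate, 1 with arrays scaled (*ENA1*), 1 with at least 5 of 6 spots (*MF(ALPHA)1*), 1 when both dyes were required (*MATALPHA1*, an alternative chosen after seeing the data) and 0 to 2 when a replicate was left out. The 0 indices became 4 in Cy3 only, 3 in Cy5 only, 4 with slide batch as a block, 4 in batch C only, 2 by junction in place of exon and 0 to 2 when a replicate was left out. Against the other strains batch C only gave 16 genes in place of 0. The 18 genes between slide batches became 81 in Cy3 only, 41 in Cy5 only and 10 with at least 5 of 6 spots, and the 12 indices between batches 21, 31 and 3 in the same order, 5 with arrays scaled and 2 with each array as a replicate. Of the batch differences that departed from the 5 other strains, the 9 exon values became 0 with arrays scaled, 3 with each array as a replicate, 5 in Cy3 only and 6 to 10 under the other alternatives run. The 3 indices became 0 with at least 5 of 6 spots, 1 in Cy3 only, 1 with each array as a replicate, 9 in Cy5 only, 5 by spot medians and 3 or 4 under the others. The 1 junction call against 0 became 0 with arrays centred, robust eBayes, batch C only, own replicates or at least 5 of 6 spots, 4 in Cy3 only, and 0 to 3 when a replicate was left out. The cause was not tested.

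With a replicate block for the number in the labels, 0 genes were called by exon value (53 at an unadjusted p under 0.05) and 0 indices besides *RPL23A*, and the *RPL23A* intron was still called, while the 1 junction call, *COX4*, was lost. The block was not run within batch C or between slide batches. Samples sharing a number are not stated to be paired: over 24 pairs in 8 strains the correlation of deviations ran between -0.0014 and 0.67, with 19 over 0.1, and 17 correlated best with their own number.

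With the mutant in Cy3 only the sign turned for exon value of *RPL3* -0.22, *RPL19B* -0.069, *RPL24A* -0.038, *RPL24B* -0.055, *HSC82* 0.10, *RGS2* -0.22, *ARO80* 0.19, *NOG2* 0.051, *RCL1* 0.11, *DCP1* 0.24, *PGK1* 0.0040, *GAL4* -0.28 and *RPL41A* 0.23, for index of *YNL050C* 5.2e-04, for batch difference of *ARO80* 0.065. With the mutant in Cy5 only the sign turned for exon value of *RPL19A* -0.029, *ECM16* -0.048, *RRS1* -0.11, *PRP39* -0.19, *NIP7* -0.042, *RPO26* -0.61, *SPO1* -0.25, *RRT8* -0.34, *IME4* 0.13, *NMD4* -0.087, *tV(UAC)Q* -0.031, *DCN1* 0.031, *RAD14* -0.0042, *LSM8* -0.026, *RRP6* -0.28 and *RPS10B* -0.17, for index of *SNC1* -0.074, *COF1* -0.0079, *NHP6B* -0.060, *RFA2* 0.14 and *ARP9* 0.043, for batch difference of *IME4* 0.22. In batch C only the sign turned for exon value of *RPL19A* -0.018, *RPL19B* -0.0037, *RPL24A* -0.035, *RPL24B* -0.015, *GTS1* -0.38, *RRT8* -0.21, *RGS2* -0.19 and *GAL4* -0.059. By spot medians the sign turned for exon value of *RPL19B* -0.0069 and *RPL24A* -0.0049. With slide batch as a block the sign turned for exon value of *RPL19B* -0.013, *RPL24A* -1.5e-04, *TDH1* -0.78, *RPO26* -0.0066, *GTS1* -0.28, *CUP1-2* 0.057, *YIP3* -0.017 and *RPL41A* 0.038. With arrays scaled the sign turned for exon value of *RPL24A* -0.0020 and *RRT8* -0.048. With at least 5 of 6 spots the sign turned for exon value of *SPO1* -0.10, *RRT8* -0.13, *IME4* 0.076, *MRK1* -0.045, *STE11* 0.021 and *LSM8* -0.0061, for index of *OM14* -0.0064 and *RFA2* 0.062, for batch difference of *SPO1* -0.011, *IME4* 0.32 and *ARO80* 0.24. With both dyes required the sign turned for exon value of *RRT8* -0.13 and *IME4* 0.029, for batch difference of *IME4* 0.23 and *ARO80* 0.24. By junction the sign turned for index of *RPS23A* -0.013 and *NHP6B* -0.51. Leaving out 1 replicate, exon values that turned ranged over -0.0019 to 0.14 (*RPL3*), -0.018 to 0.23 (*RPL19A*), -0.010 to 0.034 (*RPL19B*), -0.035 to 0.047 (*RPL24A*), -0.015 to 0.074 (*RPL24B*), -0.13 to 0.39 (*TDH1*), -0.24 to 0.35 (*RPO26*), -0.28 to 0.78 (*SPO1*), -0.38 to 0.55 (*GTS1*), -0.64 to 0.077 (*CUP1-2*), -0.21 to 0.26 (*RRT8*), -0.84 to 0.029 (*IME4*), -0.19 to 0.20 (*RGS2*), -0.11 to 0.021 (*STE11*) and -0.059 to 0.28 (*GAL4*).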
